A study of Mus musculus with 12 samples.

Results

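The libraries of drug-treated mice on a high-fat diet (HFD-ncls) were compared with those of vehicle-treated mice on a normal chow diet (NCD-veh) in white fat (WAT), brown fat (BAT), liver and muscle (quadriceps). These are 8 of the 12 RNA-seq libraries, chosen by their diet, treatment and organ labels, and they form 4 pairs, 1 in each organ. The comparison shows which differences from chow-fed controls were present in mice that stayed on the high-fat diet while receiving narciclasine (ncls), an alkaloid of the Amaryllidaceae. All mice were male C57BL/6J mice whose tissues were taken at 17 wk of age. NCD-veh mice ate chow throughout, and HFD-ncls mice ate a diet with 60% of its calories from fat from 8 wk of age. From 10 wk of age and for 7 wk, HFD-ncls mice received 1 mg/kg ncls once a week by oral gavage, and NCD-veh mice received the vehicle, 5% hydroxypropyl cyclodextrin. The HFD-veh libraries (high-fat diet and vehicle) were used only to say whether a difference was also present without the drug. Diet and drug both differ between HFD-ncls and NCD-veh, so their parts in a difference cannot be told apart from this pair alone. Each organ and group had 1 library, and the number of mice behind it is not given in the sources used here, so there is no spread between mice.

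In diet-induced obesity, white fat enlarges and releases more leptin, and macrophages gather around lipid-laden and dying adipocytes. In the liver, insulin and carbohydrate drive fatty acid synthesis through the transcription factors SREBP-1c and ChREBP, and the cholesterol pathway is controlled by SREBP-2. Brown fat burns fatty acids to make heat and also synthesizes them. Immediate-early genes such as Fos and Egr1 are transcribed within minutes of many stimuli, and clock genes cycle through the day in every organ.

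Expression was given as FPKM, the number of fragments per kilobase of exon, scaled to those mapped. Ratios are log2 of (FPKM + 0.1), HFD-ncls over NCD-veh, and 1 on this scale is 2-fold. A gene was tested in an organ where either library reached 1 FPKM. The 8 libraries had 9130 (NCD-veh muscle) to 12052 genes (HFD-ncls WAT) at an FPKM of at least 1, with relative depths, read from the steps between low FPKM values, of 0.747 to 1.04. The organ labels matched their markers: the summed FPKM of 12 skeletal muscle markers was 121950.0 for NCD-veh, 121653 for HFD-veh and 116215 for HFD-ncls muscle, that of 8 brown adipocyte markers was 8373 for NCD-veh, 9246 for HFD-veh and 10248 for HFD-ncls BAT against 50.0 for NCD-veh, 106 for HFD-veh and 89.7 for HFD-ncls WAT, and that of 22 liver markers was 71782 for NCD-veh, 67205 for HFD-veh and 71453 for HFD-ncls liver. The 11 adipocyte markers summed to 29014 for NCD-veh, 20491 for HFD-veh and 18903 for HFD-ncls WAT. Their median log2 ratio of HFD-ncls to NCD-veh in WAT was -0.18, with 1 over 2-fold higher and 1 lower, Cfd (-3.44). Transcripts of other organs were unequal within pairs. The 12 skeletal muscle markers in BAT summed to 2583 for NCD-veh, 1050.0 for HFD-veh and 188 for HFD-ncls, and all were over 2-fold lower in HFD-ncls. Of the 20 liver markers tested in WAT, 19 were higher in HFD-ncls. Without Cyp2e1, which WAT itself expressed at 1053 FPKM in NCD-veh, the liver markers in WAT summed to 7.71 for NCD-veh, 66.7 for HFD-veh and 252 for HFD-ncls, and 9 of them were at 0 in NCD-veh. All 9 genes of a seminal vesicle list, chosen after the values were seen, were lower in HFD-ncls WAT, with sums of 77.7 for NCD-veh, 0.131 for HFD-veh and 0.0497 for HFD-ncls. Counts are therefore also given without genes that are enriched in another organ. Such counts also lose genes that an organ shares with another. Among those lost were 8 of 11 skeletal muscle markers tested in muscle and 8 of 11 adipocyte markers tested in BAT. In HFD-veh muscle, the liver markers without Cyp2e1 summed to 636, against 2.71 in NCD-veh and 1.14 in HFD-ncls.

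**Figure D1:**
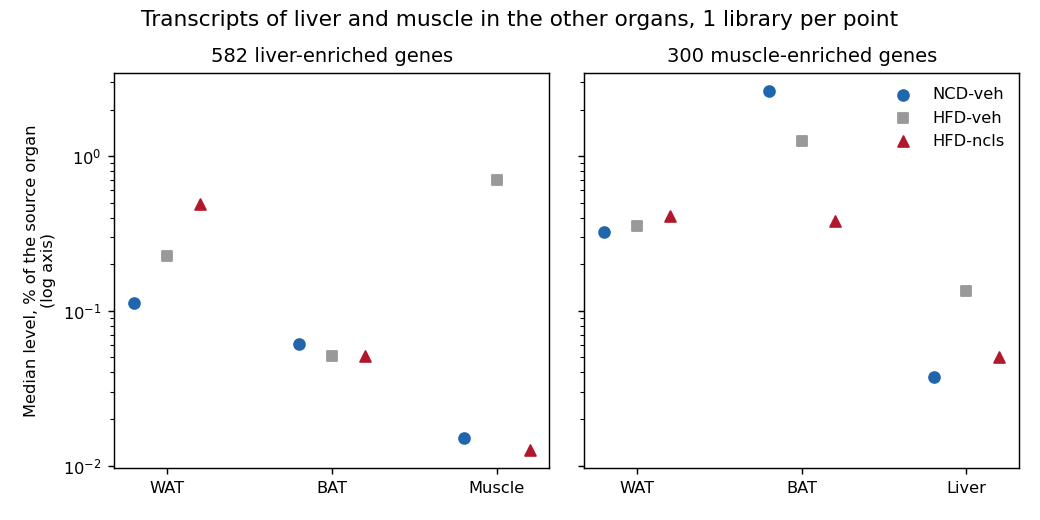
Median level of 582 liver-enriched genes (left) and 300 muscle-enriched genes (right) in libraries of the other organs, in percent of the level in the source organ on a log axis, with 1 point per library. The liver-enriched genes in WAT lay at 0.113% in NCD-veh and 0.487% in HFD-ncls, and the muscle-enriched genes in BAT at 2.65% in NCD-veh and 0.380% in HFD-ncls.

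WAT held the most genes over 2-fold between HFD-ncls and NCD-veh and muscle the fewest. In WAT, 878 of 12357 genes tested were higher in HFD-ncls (7.11%) and 307 lower (2.48%). In liver, 257 of 9961 genes were higher (2.58%) and 261 lower (2.62%). In BAT, 141 of 10365 genes were higher (1.36%) and 284 lower (2.74%). In muscle, 85 of 9516 genes were higher (0.893%) and 30 lower (0.315%). The median log2 ratio of all genes tested was 0.07 in WAT, -0.06 in BAT, 0.05 in liver and 0.08 in muscle. After rescaling each pair by its median ratio, muscle had 66 genes higher and 40 lower, a share higher of 62.3% in place of 73.9%. Without genes enriched in another organ, 745 were higher and 277 lower in WAT, 114 and 108 in BAT, 239 and 245 in liver, and 56 and 27 in muscle. The BAT total thus went from 425 to 222 genes.

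Most of the WAT differences were present in HFD-veh as well. Of the genes over 2-fold higher in HFD-ncls WAT, 599 (68.2%) were also over 2-fold higher in HFD-veh, as were 95 of 141 in BAT (67.4%), 150 of 257 in liver (58.4%) and 30 of 85 in muscle (35.3%). Of the lower genes, 243 of 307 were also over 2-fold lower in HFD-veh in WAT (79.2%), 152 of 284 in BAT (53.5%), 122 of 261 in liver (46.7%) and 14 of 30 in muscle (46.7%). Differences of HFD-ncls alone, with HFD-veh within 1.4-fold of NCD-veh, numbered 45 higher and 12 lower genes in WAT, 17 and 39 in BAT, 44 and 50 in liver, and 31 and 8 in muscle. Both comparisons use the same NCD-veh library, so an unusual value there enters both.

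Read the other way, the share of diet-related differences that remained in HFD-ncls mice was lowest in muscle in both directions, and it was highest in WAT for the higher genes and in BAT for the lower genes. A gene was counted as diet-related where HFD-veh and NCD-veh differed over 2-fold, among genes that reached 1 FPKM in any of the 3 libraries. In WAT, 696 of 12403 genes were higher in HFD-veh (5.61%), of which 607 remained over 2-fold higher in HFD-ncls (87.2%), and 478 were lower (3.85%), of which 243 remained (50.8%). In liver, 291 of 10137 genes were higher (2.87%) and 156 remained (53.6%), and 229 were lower (2.26%) and 122 remained (53.3%). In BAT, 240 of 10533 genes were higher (2.28%) and 102 remained (42.5%), whereas 210 were lower (1.99%) and 152 remained (72.4%). In muscle, 303 of 9795 genes were higher (3.09%) and 36 remained (11.9%), and 96 were lower (0.98%) and 14 remained (14.6%). Of the diet-related muscle genes, 179 of the 303 higher and 55 of the 96 lower lay within 1.4-fold of NCD-veh in HFD-ncls, while in WAT only 11 of 696 and 58 of 478 did. Genes enriched in another organ, some of them shared with the organ itself, weighed on these shares in BAT and muscle. With such genes, Mup genes and seminal vesicle genes left out, an alternative added after seeing the data, 21 of 74 higher genes remained in muscle (28.4%) and 45 of 94 lower genes in BAT (47.9%), while 495 of 579 higher genes remained in WAT (85.5%) and 153 of 265 in liver (57.7%). Of the lower genes, 48.8% then remained in WAT, 53.7% in liver and 14.9% in muscle, so that liver and not BAT had the highest share. In muscle, only 74 of the 303 higher genes were left by this alternative, so the 179 within 1.4-fold include genes that it leaves out. Liver markers without Cyp2e1 summed to 636 in HFD-veh muscle, against 2.71 in NCD-veh and 1.14 in HFD-ncls. The part of liver RNA in the muscle counts was not tested.

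**Figure D2:**
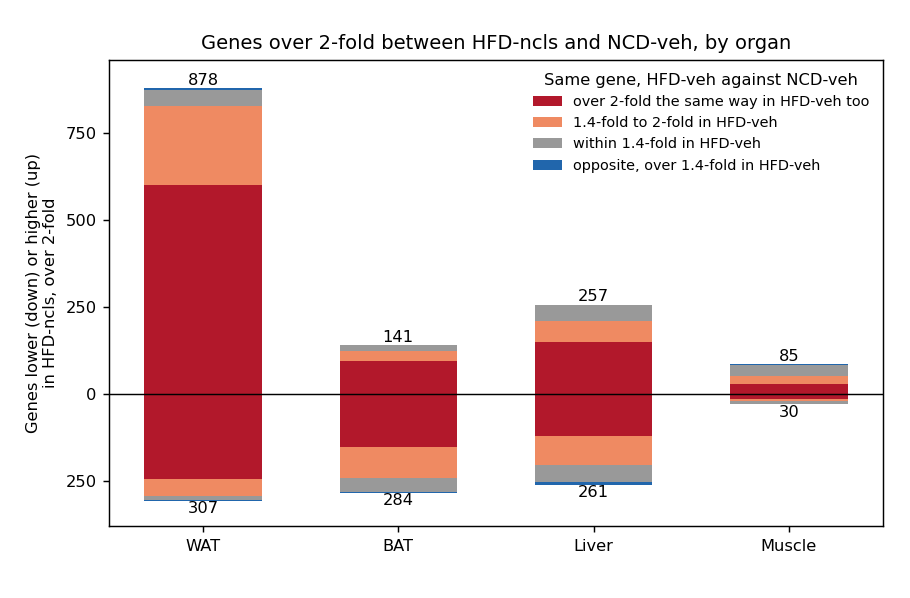
Number of genes over 2-fold higher (up) or lower (down) in HFD-ncls than in NCD-veh in each organ, coloured by the ratio of HFD-veh to NCD-veh for the same gene. The bars reach 878 and 307 genes in WAT, 141 and 284 in BAT, 257 and 261 in liver, and 85 and 30 in muscle, and the share also over 2-fold in HFD-veh (dark red) was largest for the lower genes of WAT.

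Across the 4 organs, most genes over 2-fold apart were so in 1 organ. Over 2-fold, 1182 genes were higher in 1 organ, 83 in 2 organs, 3 in 3 organs (Cish, Egr1 and Lep) and 1, Fos, in all 4, while 809 genes were lower in 1 organ, 35 in 2 and 1, Cyp2e1, in 3. Another 112 genes were over 2-fold higher in 1 organ and over 2-fold lower in another. Of the genes tested in both WAT and liver, 35 were higher in both, which was 8.64% of the 405 higher in WAT and 17.6% of the 199 higher in liver. Of all 9257 genes tested in both, 4.38% were higher in WAT and 2.15% in liver, which are lower shares than those of the overlap, and the overlap was not tested. In muscle and liver, 11 genes were higher in both, 25.0% of the 44 higher in muscle and 7.48% of the 147 higher in liver, where 1.82% of all 8091 genes tested in both were higher in liver and 0.544% in muscle. Among 7869 genes tested in every organ, a limma fit with the organ as block called 0 at a Benjamini-Hochberg adjusted p under 0.05 (0% of genes), with a smallest adjusted p of 0.292, and 344 at an unadjusted p under 0.05 (4.37%), 276 higher and 68 lower. This fit takes the 4 organs as the unit, the organs of a group may come from the same mice, and its p-values measure the spread between organs only. An exact sign-flip test of 4 pairs cannot go below a two-sided p of 0.125. The ratio had the same sign in all 4 organs for 871 genes (11.1%), 636 higher and 235 lower. Independent and equally likely signs would agree in a share of 0.125, which is above this one. The 4.37% at an unadjusted p under 0.05 in the limma fit likewise lay below the share of 0.05 expected without any difference. Over 1.4-fold in all 4 organs were 7 genes (0.089%), and over 2-fold 1 gene (0.0127%).

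Fos (chr12:86814840-86818223 in mm9), an immediate-early transcription factor gene and subunit of AP-1, was the gene over 2-fold higher in every organ. Its FPKM in WAT was 7.23 for NCD-veh, 14.9 for HFD-veh and 26.3 for HFD-ncls, in BAT 1.8 for NCD-veh, 44.2 for HFD-veh and 29.4 for HFD-ncls, in liver 0.145 for NCD-veh, 3.04 for HFD-veh and 2.84 for HFD-ncls, and in muscle 1.65 for NCD-veh, 14.8 for HFD-veh and 6.73 for HFD-ncls. The NCD-veh library was the lowest of the 3 in each organ, and HFD-ncls lay above HFD-veh in WAT only. The log2 ratios of HFD-ncls to NCD-veh were 1.85, 3.96, 3.58 and 1.96 in that order. The limma block fit gave 2.84 ± 0.36 (moderated SE, n = 4 organs, adjusted p = 0.292). A moderated SE is drawn towards those of other genes and is not the spread of the 4 ratios alone. Egr1, a zinc-finger immediate-early gene, had FPKM of 23.8 for NCD-veh, 34.3 for HFD-veh and 35.1 for HFD-ncls WAT, 5.65, 47.8 and 34.5 in the same order in BAT, 1.89, 47.5 and 66.6 in liver and 1.51, 8.93 and 5.44 in muscle. Both high-fat libraries again exceeded NCD-veh in every organ, with the largest log2 ratio in liver (5.07) and the smallest in WAT (0.56). The time of day at which each group was sampled is not given in the sources used here. For these immediate-early genes, a difference in sampling and a difference of the groups cannot be told apart.

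The other genes over 1.4-fold apart in all 4 organs were 4 higher and 1 lower. Sik1 (chr17:31981193-31992737), a salt-inducible kinase gene induced by cAMP, went from 4.22 to 12.5 FPKM between NCD-veh and HFD-ncls in WAT, from 4.5 to 7.59 in BAT, from 3.87 to 10.4 in liver and from 1.47 to 2.74 in muscle. Prelp (chr1:135806881-135817991), a leucine-rich proteoglycan of connective tissue, went from 442 to 794 in WAT, from 24.6 to 82.3 in BAT, from 9.22 to 16.6 in liver and from 6.26 to 13.9 in muscle. Ramp2 (chr11:101107342-101120860), the partner of the adrenomedullin receptor in endothelium, had log2 ratios of 1.05, 0.58, 0.71 and 0.61 in WAT, BAT, liver and muscle. Srgn (chr10:61956581-61990199), the core protein of serglycin proteoglycans in haematopoietic and endothelial cells, had 0.55, 0.64, 0.53 and 0.80. The 1 gene lower in all 4 organs was 2610019E17Rik, with log2 ratios of -0.96, -0.92, -1.48 and -0.96. The block fit of limma gave each of these 5 an adjusted p of 0.292 to 0.652, so none passed the test.

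The 250 bases before the annotated start are shown for 3 genes of this group, Fos, Prelp and Srgn, from the RefSeq promoter table (GRCm38.p6), since they were higher in all 4 organs. Capitals mark matches, on either strand, to the cAMP response element TGACGTCA or its shorter form TGACGT, to the E-box CACGTG, to TATAAA (the TATA box) or to the CArG box of serum response factor. The short form, which lies within the longer one, was added after the longer form was found in none of them. They are given 5′ to 3′ on the strand of the gene, Fos on the plus strand (chr12:85473640-85473889), Prelp on the minus strand (chr1:133921402-133921651) and Srgn on the minus strand (chr10:62527446-62527695, the first of its listed starts).
Fos: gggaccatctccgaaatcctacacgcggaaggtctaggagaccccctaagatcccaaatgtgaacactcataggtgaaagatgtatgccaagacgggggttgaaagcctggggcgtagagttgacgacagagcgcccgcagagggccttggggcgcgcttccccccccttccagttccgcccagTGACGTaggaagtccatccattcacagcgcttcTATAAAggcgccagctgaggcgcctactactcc
Prelp: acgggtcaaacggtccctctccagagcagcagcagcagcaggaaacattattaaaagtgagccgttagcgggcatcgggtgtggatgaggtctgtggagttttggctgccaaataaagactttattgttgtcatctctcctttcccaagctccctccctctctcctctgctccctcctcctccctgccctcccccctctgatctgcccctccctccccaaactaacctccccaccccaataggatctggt
Srgn: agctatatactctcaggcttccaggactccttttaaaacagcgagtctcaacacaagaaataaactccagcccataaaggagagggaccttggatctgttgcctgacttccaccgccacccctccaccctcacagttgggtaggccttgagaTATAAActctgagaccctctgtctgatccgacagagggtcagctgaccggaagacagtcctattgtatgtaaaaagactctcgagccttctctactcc
Fos held TGACGT from 66 bases and TATAAA from 33 bases before the start, Srgn held TATAAA from 98 bases before it, and Prelp held none of the motifs. Of 32851 promoter windows of this length, 6.47% held TGACGT, 1.55% TGACGTCA, 6.02% CACGTG, 1.47% the CArG box and 12.4% TATAAA. Egr1, Sik1, Ramp2 and 2610019E17Rik are named only.

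**Figure D3:**
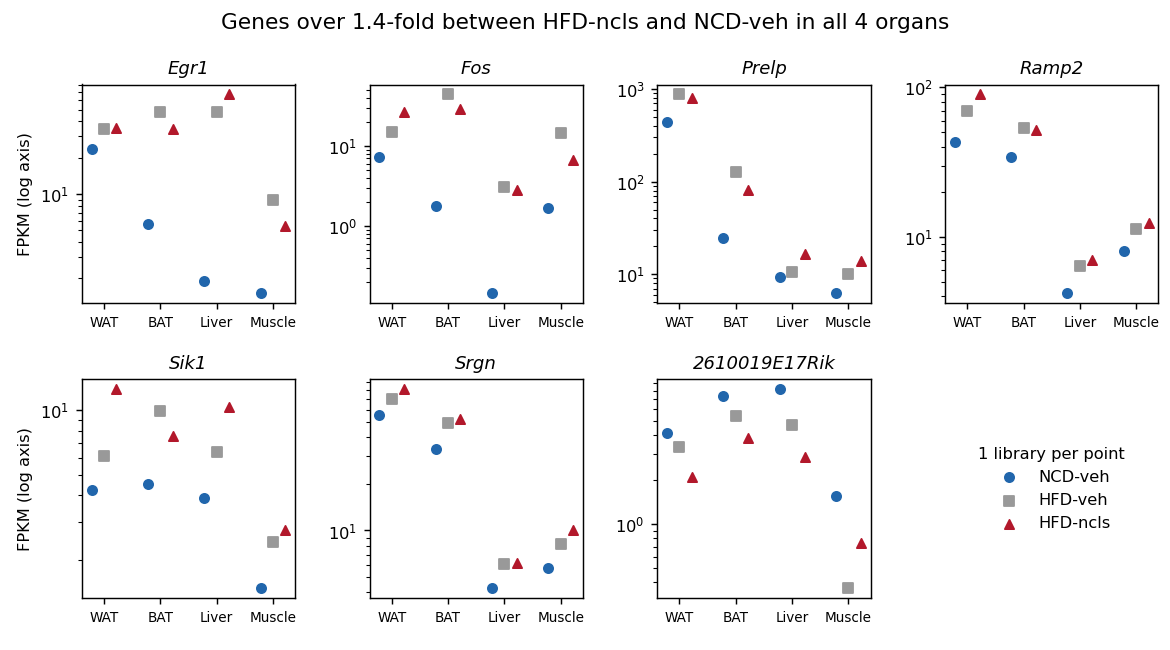
FPKM on a log axis of the 7 genes over 1.4-fold apart in all 4 organs, with 1 point per library of each of the 3 groups. In each panel the HFD-ncls triangle lies on the same side of the NCD-veh circle in every organ, above it for 6 genes and below it for 2610019E17Rik.

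Of the genes over 2-fold higher in 3 organs, Lep encodes the adipocyte hormone leptin. Its FPKM was 300.2 for NCD-veh, 1199 for HFD-veh and 1062 for HFD-ncls WAT, 0.597, 3.68 and 2.13 in the same order in BAT, and 0.133, 5.04 and 1.6 in muscle. The levels in BAT and muscle were a small part of that in WAT. Cish, a cytokine-induced inhibitor of STAT5 signalling, went from 1.84 to 12.1 between NCD-veh and HFD-ncls in BAT, from 2.47 to 13.5 in liver and from 4.64 to 17.6 in muscle. In liver and muscle its HFD-veh values, 3.02 and 4.8, stayed close to NCD-veh. In WAT, Cish was lower, with 6.73 for NCD-veh, 2.23 for HFD-veh and 2.0 for HFD-ncls. Cyp2e1, an ethanol-inducible cytochrome P450, was lower in WAT (1053 for NCD-veh, 438 for HFD-veh and 409 for HFD-ncls), BAT (75.1, 16.3 and 25.2) and muscle (15.3, 33.9 and 7.27), with a log2 ratio of -0.06 in liver, where its level went from 3762 to 3619.7 FPKM from NCD-veh to HFD-ncls.

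In WAT, many macrophage genes were above the chow level. Of the 24 macrophage genes tested, 12 were over 2-fold higher in HFD-ncls and 0 lower, with a median log2 ratio of 0.90 against 0.07 for all genes. Gpnmb (chr6:48986517-49020928), a glycoprotein of lipid-laden macrophages, had an FPKM of 4.42 for NCD-veh, 106 for HFD-veh and 153 for HFD-ncls. Mmp12, macrophage elastase, had 3.71 for NCD-veh, 66.1 for HFD-veh and 95.7 for HFD-ncls. Atp6v0d2, a subunit of the lysosomal proton pump, had 0.933 for NCD-veh, 32.3 for HFD-veh and 37.8 for HFD-ncls. In all 3, HFD-ncls was the highest library. The lipid receptor gene Trem2 had log2 ratios of 3.41 in HFD-ncls and, without the drug, 2.86 in HFD-veh, while Itgax, which encodes the integrin CD11c, had 2.98 and 2.82. Spp1 (osteopontin) had an FPKM of 0.432 for NCD-veh, 4.26 for HFD-veh and 12.5 for HFD-ncls, and it is also enriched in liver. In whole tissue, more cells of a type and more RNA per cell cannot be told apart.

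Genes of dividing cells, of chemokines and of the extracellular matrix were also above chow in HFD-ncls WAT. Of 17 cell proliferation genes tested, 13 were over 2-fold higher and all had a ratio above 0, with a median of 1.65 in HFD-ncls and 1.52 in HFD-veh. Mki67, which encodes the proliferation antigen Ki-67, went from 1.73 to 6.82 FPKM, and Top2a, DNA topoisomerase II alpha, from 1.27 to 4.76. Birc5 (survivin) had log2 ratios of 2.19, Ccnb2 and Ccna2 (cyclins) of 2.45 and 1.97, and Rrm2 (ribonucleotide reductase) of 2.09. All these levels were low, at most 6.82 FPKM. Of 17 chemokines, 8 were higher and 1 lower (median 0.94). Ccl2, which attracts monocytes, had 8.22 for NCD-veh, 49.3 for HFD-veh and 22.8 for HFD-ncls, and Ccl7 had 6.18, 28.9 and 15.9 in the same order. For both, HFD-ncls lay between chow and HFD-veh, whereas Ccl8 was 44.6 in HFD-veh and 46.1 in HFD-ncls against 7.84 in NCD-veh. Cxcl12, a stromal chemokine, had a log2 ratio of 1.18. Of 21 collagen and matrix genes, 4 were higher: Timp1, a metalloproteinase inhibitor (3.97 to 19.6), and the 3 collagen VI chains Col6a1 (137 to 357), Col6a2 (129 to 395) and Col6a3 (21.9 to 59). The list had a median of 0.56.

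Markers of adipose expansion stayed above chow as well. Tph2, which encodes a tryptophan hydroxylase, had 0.38 for NCD-veh, 18.3 for HFD-veh and 19.2 for HFD-ncls. Mest, an imprinted gene whose level follows fat mass, had 87 for NCD-veh, 526 for HFD-veh and 453 for HFD-ncls, and Sfrp5, a secreted inhibitor of Wnt signalling, had 80.6 for NCD-veh, 229.8 for HFD-veh and 208 for HFD-ncls. These 3 and Lep were the 4 of 10 white fat expansion genes that were over 2-fold higher, and 1 was lower. Of the most increased genes outside the lists, Ubd, a ubiquitin-like modifier, had 2.21 for NCD-veh, 129 for HFD-veh and 97.7 for HFD-ncls, and Ear11, an eosinophil-associated ribonuclease, had 0.54 for NCD-veh, 100.3 for HFD-veh and 41.4 for HFD-ncls. In both, HFD-ncls lay below HFD-veh and far above chow. In the lipid droplet list (2 of 22 higher, 1 lower), Plin2, a coat protein of lipid droplets, went from 95.2 to 299, Mogat2 from 3.71 to 16.6 and Mogat1, another monoacylglycerol acyltransferase, from 22.8 to 6.77. Cholesterol synthesis genes were higher in 9 of 22 cases with none lower (median 0.80), led by Insig1, the sterol-regulated retention factor of SREBP, at 29.5 for NCD-veh, 105 for HFD-veh and 152 for HFD-ncls.

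The largest decrease in WAT by level was that of Cfd (chr10:79353598-79355401), the adipocyte protease adipsin, with 8163 for NCD-veh, 653 for HFD-veh and 753 for HFD-ncls. Pck1, which makes glycerol precursors for triglyceride in fat, had 836 for NCD-veh, 141 for HFD-veh and 146 for HFD-ncls. In each, both high-fat libraries lay far below chow and within a narrow range of each other. Adrb3, the adipocyte beta-3 adrenergic receptor, had 212 for NCD-veh, 67 for HFD-veh and 70.4 for HFD-ncls, and Mmp9, a gelatinase, had 7.95, 1.47 and 0.759 in the same order. Farsb, a subunit of phenylalanyl-tRNA synthetase, was 4.42 in NCD-veh and under 1 FPKM in both others (0.177 and 0.095). All 17 genes of branched-chain amino acid catabolism had a ratio below 0 (median -0.58, range -1.15 to -0.23), but only Aldh6a1, methylmalonate semialdehyde dehydrogenase, passed 2-fold (224 for NCD-veh, 115 for HFD-veh and 101 for HFD-ncls). Of 9 lymphocyte genes, 1 was lower, the CD8 chain gene Cd8b1 (1.41, 0.416 and 0.298). The list had a median of -0.53 in HFD-ncls and -1.58 in HFD-veh, where 8 were over 2-fold lower.

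Among WAT genes with HFD-veh near chow, Dusp1, a phosphatase of MAP kinases, had 26.5 for NCD-veh, 36.8 for HFD-veh and 69 for HFD-ncls, and Tsc22d3 (GILZ), a glucocorticoid-induced leucine zipper, had 45.1 for NCD-veh, 58.4 for HFD-veh and 111 for HFD-ncls. These 2 and 8430408G22Rik (16.9, 21.4 and 61.7) were the leading genes of this kind. In the glucocorticoid-responsive list, 5 of 14 genes were over 2-fold higher in WAT and 0 lower, with Cdkn1a, the cell cycle inhibitor p21, at 9.73 for NCD-veh, 77.2 for HFD-veh and 67.4 for HFD-ncls and Ddit4, an inhibitor of mTORC1, at 6.44 for NCD-veh, 14 for HFD-veh and 28 for HFD-ncls. Ddit4 in HFD-ncls was the highest of the 3 libraries. Lowest were Retnlg, a resistin-like gene of neutrophils (1.79, 1.89 and 0), and Tmsb15l (1.45, 1.88 and 0.00641), both listed at or near 0 in HFD-ncls and at low levels otherwise.

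Lists whose genes are typical of liver or brown fat were also higher in WAT, where liver markers were higher in the same library. Of the 13 acute phase genes tested in WAT, 8 were higher and 1 lower, and 11 of the 13 are enriched in another organ. Hpx, the plasma haem carrier hemopexin, was at 0.0686, 1.69 and 4.89 FPKM. The single higher members of the bile acid, gluconeogenesis and P450 lists, Slc10a1 (2.60), Fbp1 (3.22) and Cyp2a5 (3.60), were liver-enriched too, each with at most 1.47 FPKM in WAT. The part of liver RNA in these values was not tested. In the brown fat thermogenic list, 7 of 15 were higher and 2 lower, and 11 of the 15 are enriched in another organ. Of the other 4, 1 was higher and 2 were lower. Otop1, a proton channel gene, had 0.149 for NCD-veh, 3.67 for HFD-veh and 3.66 for HFD-ncls, Slc36a2, an amino acid transporter, had 44.2 for NCD-veh, 88.5 for HFD-veh and 93.4 for HFD-ncls and Cpt1b, the muscle and brown fat carnitine palmitoyltransferase, had 0.501, 2.04 and 2.47. The summed FPKM of brown adipocyte markers in WAT was 50.0 for NCD-veh, 106 for HFD-veh and 89.7 for HFD-ncls, and the part of brown fat tissue in these values was not tested.

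In liver, the cholesterol and fatty acid synthesis lists held the most genes above chow. Of 18 fatty acid synthesis genes tested, 12 were over 2-fold higher and 0 lower, with a median log2 ratio of 1.50 in HFD-ncls and 1.43 in HFD-veh, against 0.05 for all genes in HFD-ncls. Thrsp (chr7:104561448-104566240), which promotes fatty acid synthesis, had 27.4 for NCD-veh, 887 for HFD-veh and 1570.2 for HFD-ncls. Fasn, fatty acid synthase, had 11.3 for NCD-veh, 65.2 for HFD-veh and 162 for HFD-ncls, and Acly, which makes cytosolic acetyl-CoA, had 18.3 for NCD-veh, 79.7 for HFD-veh and 102 for HFD-ncls. In these 3 genes HFD-ncls was the highest library and NCD-veh the lowest. Srebf1, which encodes SREBP-1, went from 13.3 to 95 FPKM, the elongase gene Elovl6 from 5.2 to 40.7 and the desaturase gene Fads2 from 122 to 601. Pklr, liver pyruvate kinase and a ChREBP target, had 27.4 for NCD-veh, 119 for HFD-veh and 159 for HFD-ncls. Igfbp1, which insulin represses, was higher too (30.7 for NCD-veh, 72.7 for HFD-veh and 162 for HFD-ncls). These 2 and G6pc, glucose-6-phosphatase (log2 ratio 1.01), were among the 4 of 13 gluconeogenesis and insulin response genes that were higher, and 1 was lower. Lpin1, a phosphatidate phosphatase, had 12.4 for NCD-veh, 44.7 for HFD-veh and 110.4 for HFD-ncls.

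Of 23 cholesterol synthesis and LDL uptake genes, 17 were higher in liver and 0 lower, and all 23 ratios were above 0 (median 1.53 in HFD-ncls, 1.37 in HFD-veh). Fdps, farnesyl diphosphate synthase, had 30.2 for NCD-veh, 136 for HFD-veh and 199.6 for HFD-ncls. Sc4mol, a sterol oxidase, and Idi1, an isomerase of the pathway, had log2 ratios of 2.50 and 2.33. Each of these 3 was highest in HFD-ncls. Aacs, which activates acetoacetate for lipid synthesis, was among the most increased genes, with 2.26 for NCD-veh, 27.4 for HFD-veh and 64.6 for HFD-ncls. Of 13 bile acid genes, Cyp7a1, the rate-limiting enzyme of bile acid synthesis, was higher (11.5 for NCD-veh, 105 for HFD-veh and 60.5 for HFD-ncls) and Nr0b2 (SHP), its repressor, lower (54.6 for NCD-veh, 35.8 for HFD-veh and 22.6 for HFD-ncls).

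The acute phase list held the most genes below chow in liver. Of 16 genes tested, 11 were over 2-fold lower and 1 higher, with a median of -1.37 in HFD-ncls and -1.69 in HFD-veh. Saa2 (chr7:54007203-54009684), a serum amyloid A protein, had 6590.1 for NCD-veh, 53.7 for HFD-veh and 118 for HFD-ncls, and Saa1 had 7071 for NCD-veh, 132 for HFD-veh and 299 for HFD-ncls. Lcn2, the siderophore-binding lipocalin, had 681 for NCD-veh, 10.2 for HFD-veh and 11.6 for HFD-ncls. NCD-veh stood alone in each of them, by more than an order of magnitude. Saa3 had a log2 ratio of -5.12 and Orm2, an orosomucoid, of -3.57. The metallothionein genes Mt1 and Mt2, which glucocorticoids and metals induce, went from 1431 to 227 and from 584 to 48.8 FPKM. Since both high-fat libraries are set against 1 NCD-veh liver library, whether these levels are usual for chow-fed mice was not tested. Reads of near-identical family members (Saa, Orm, Mt, Cyp3a, Scd, H2-Q and beta-globin genes) may be split by the quantification, so single members are uncertain.

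Targets of PPAR-alpha and xenobiotic P450 genes included members that were lower in HFD-ncls liver. Of 26 fatty acid oxidation genes, 3 were lower and 0 higher. Cyp4a14, a fatty acid omega-hydroxylase, had 326 for NCD-veh, 233 for HFD-veh and 32.6 for HFD-ncls, and Cyp4a10, of the same family, had 438 for NCD-veh, 277 for HFD-veh and 80.8 for HFD-ncls. Fgf21, a fasting hormone of the liver, had 8.83 for NCD-veh, 3.29 for HFD-veh and 3.05 for HFD-ncls. HFD-ncls stood apart from both other libraries for the Cyp4a genes, whereas Fgf21 was low in both high-fat libraries. Of 21 P450 genes, 5 were lower (median -0.51). Cyp3a11, the main drug-metabolizing Cyp3a of mouse liver, had 1165 for NCD-veh, 330.1 for HFD-veh and 177 for HFD-ncls, and Cyp3a16, Cyp3a44 and Cyp3a25 had log2 ratios of -2.54, -2.61 and -1.66. G0s2, an inhibitor of the lipase ATGL, had 284 for NCD-veh, 173 for HFD-veh and 51 for HFD-ncls. Of 22 genes of the unfolded protein and integrated stress response, 5 were lower and 1 higher. Creld2, a chaperone of the endoplasmic reticulum, had 37.5 for NCD-veh, 13.7 for HFD-veh and 13.6 for HFD-ncls, and Dnajb9, a co-chaperone there, 34.8, 17 and 16.9 in the same order. Trib3, a pseudokinase induced by CHOP, had 2.75 for NCD-veh, 2.1 for HFD-veh and 0.635 for HFD-ncls, and Atf5, a stress transcription factor, 261, 114 and 124. The higher gene was Chac1, which degrades glutathione, at 0.944, 1.82 and 4.41.

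Clock and immediate-early genes differed in liver as a mixture of directions and as increases. Of 17 clock genes, 7 were higher and 3 lower. Dbp, a clock output factor, had 3.87 for NCD-veh, 54.8 for HFD-veh and 37.7 for HFD-ncls, and Per2, a clock repressor, had 1.15 for NCD-veh, 5.89 for HFD-veh and 7.39 for HFD-ncls. Gm129 and Per3 had log2 ratios of 2.50 and 2.34. Rgs16, a regulator of G protein signalling whose level cycles in liver, had 1.67 for NCD-veh, 65.3 for HFD-veh and 57.4 for HFD-ncls. In all 5 genes both high-fat libraries lay above chow. The time of day at which each group was sampled is not given in the sources used here, so a difference in sampling time and a difference of the groups cannot be told apart. Of 11 immediate-early genes, 7 were higher and 0 lower (median 1.55), with Jun at 3.18, 15 and 16.8 and Btg2, an antiproliferative gene, at 3.43, 6.36 and 13.7 in the same order. Liver genes with HFD-veh near chow included Gadd45g, a stress-induced gene (14.9 for NCD-veh, 13.1 for HFD-veh and 99.6 for HFD-ncls), the transcription factor gene Myc (1.69 for NCD-veh, 1.95 for HFD-veh and 12.8 for HFD-ncls) and Bcl6, a transcriptional repressor (13.3 for NCD-veh, 14.3 for HFD-veh and 2.39 for HFD-ncls). The pseudogene Serpina4-ps1 had 13.5 for NCD-veh, 33.8 for HFD-veh and 235 for HFD-ncls. All 16 macrophage genes tested in liver had a ratio below 0 (median -0.86), 3 of them past 2-fold. Of the 16, 9 are enriched in another organ, and of the other 7 none passed 2-fold.

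**Figure D4:**
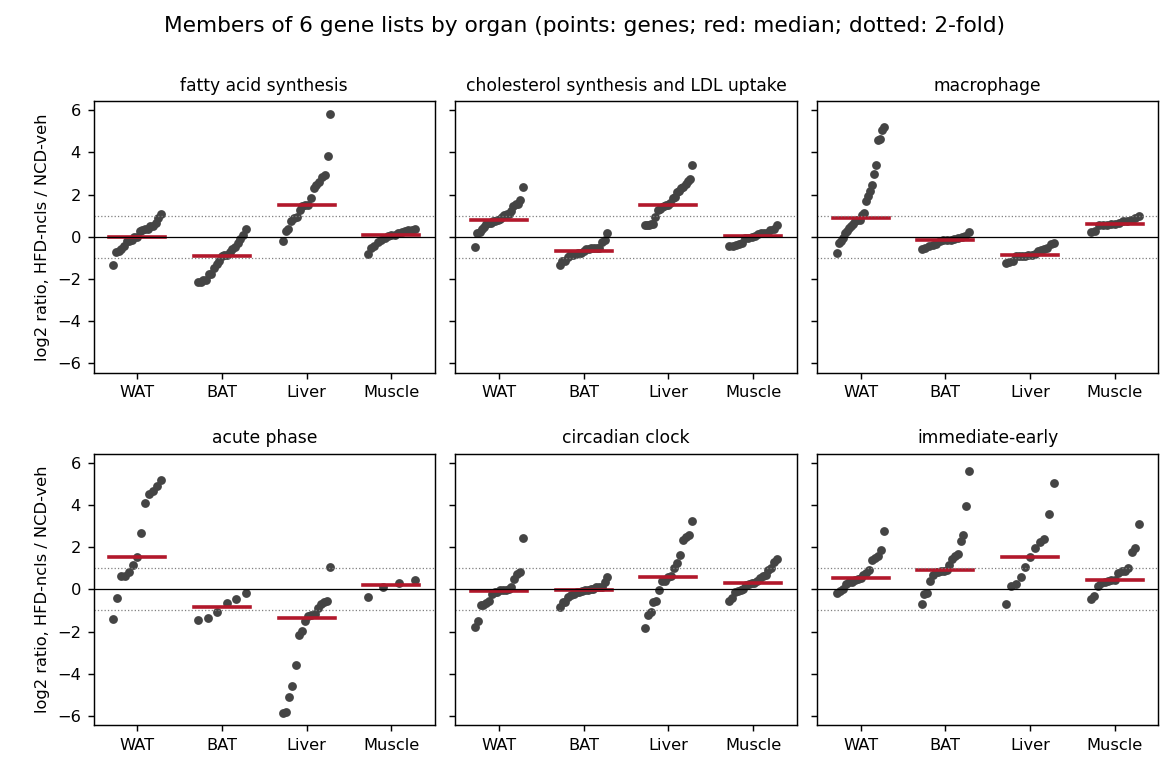
Log2 ratio of HFD-ncls to NCD-veh for each tested member of 6 gene lists in WAT, BAT, liver and muscle (points, sorted within an organ; red line, median; dotted lines, 2-fold). Median ratios of the fatty acid synthesis list were 1.50 in liver and -0.90 in BAT. Those of the macrophage list were 0.90 in WAT and -0.86 in liver, and those of the acute phase list 1.56 in WAT and -1.37 in liver. Genes enriched in another organ made up 11 of the 13 acute phase genes in WAT and 9 of the 16 macrophage genes in liver.

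In BAT, fatty acid synthesis genes were below chow. Of 19 tested, 9 were over 2-fold lower and 0 higher, with a median of -0.90 in HFD-ncls and -0.58 in HFD-veh, where 3 were over 2-fold lower. Fasn had 705 for NCD-veh, 348 for HFD-veh and 171 for HFD-ncls and Acly had 101 for NCD-veh, 54.6 for HFD-veh and 22.6 for HFD-ncls. Acaca, acetyl-CoA carboxylase, had 68.9 for NCD-veh, 49.4 for HFD-veh and 20.2 for HFD-ncls, and Scd3, a stearoyl-CoA desaturase, had 15.3 for NCD-veh, 6.3 for HFD-veh and 2.24 for HFD-ncls. In all 4 genes the libraries were ordered NCD-veh, HFD-veh, HFD-ncls from high to low. Fasn and Acly were thus lower in BAT and higher in liver, and their ratios were -0.14 and -0.20 in WAT and -0.27 and 0.22 in muscle. Cholesterol synthesis genes were lower in 3 of 19 cases, with a median of -0.69, opposite in sign to the median in liver. The difference between organs was not tested, with 1 library of each kind.

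The 250 bases before the start of Fasn (chr11:120824548-120824797) and Acly (chr11:100528001-100528250), both on the minus strand of GRCm38.p6 and given 5′ to 3′ on the strand of the gene, are shown because these genes differed in opposite directions in liver and BAT. They were chosen after their values were seen.
Fasn: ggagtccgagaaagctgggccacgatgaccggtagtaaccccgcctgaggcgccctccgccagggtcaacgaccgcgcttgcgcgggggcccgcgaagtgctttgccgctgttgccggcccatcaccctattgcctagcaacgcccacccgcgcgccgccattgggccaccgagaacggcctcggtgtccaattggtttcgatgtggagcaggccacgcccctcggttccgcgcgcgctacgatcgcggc
Acly: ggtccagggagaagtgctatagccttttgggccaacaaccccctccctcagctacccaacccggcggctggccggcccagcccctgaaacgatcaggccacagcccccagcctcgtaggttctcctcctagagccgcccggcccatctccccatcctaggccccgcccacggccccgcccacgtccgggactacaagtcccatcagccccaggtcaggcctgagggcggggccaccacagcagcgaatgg
No match to any of the motifs searched above lay in either window, so neither has a capital.

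Of the lists in BAT, that of immediate-early genes held the most above chow. Of 18 tested, 8 were higher and 0 lower (median 0.91 in HFD-ncls, 1.52 in HFD-veh). Fosb, an AP-1 subunit, had 0.422 for NCD-veh, 29.8 for HFD-veh and 25.3 for HFD-ncls, close to the order of Fos in the same libraries. Pmepa1, an inhibitor of TGF-beta signalling, had 7.89 for NCD-veh, 41.9 for HFD-veh and 57 for HFD-ncls. Ucp3 (chr7:107621499-107634941), a mitochondrial carrier induced by fatty acids, had 14.5 for NCD-veh, 45.5 for HFD-veh and 58.8 for HFD-ncls. HFD-ncls was the highest library for Pmepa1 and Ucp3. Cyp1a1, a target of the aryl hydrocarbon receptor, had 3.36 for NCD-veh, 0.719 for HFD-veh and 27.5 for HFD-ncls, the reverse order for HFD-veh and HFD-ncls around chow. Nnat, neuronatin, a WAT-enriched gene, had 2.65 for NCD-veh, 21.8 for HFD-veh and 12.9 for HFD-ncls, and the chemokine gene Ccl3 was at 0.179, 0.999 and 1.5. Glucocorticoid-responsive genes were lower in 4 of 14 cases and higher in 0. Fkbp5, a chaperone of the glucocorticoid receptor, had 8.29 for NCD-veh, 2.88 for HFD-veh and 2.19 for HFD-ncls, and Klf15, a transcription factor, had 11.4 for NCD-veh, 3.89 for HFD-veh and 3.86 for HFD-ncls. Herpud1, of the endoplasmic reticulum stress response, had 88.8 for NCD-veh, 33 for HFD-veh and 42.6 for HFD-ncls.

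Thermogenic genes of BAT stayed near the chow level. The median of 18 tested was 0.05, with 0 higher and 2 lower, against -0.06 for all genes. The lower genes included Elovl3, an elongase induced by cold (18.6 for NCD-veh, 7.39 for HFD-veh and 6.52 for HFD-ncls). Of 74 nuclear genes of the respiratory chain and ATP synthase, 1 was lower, the subunit gene Atp5g1 (12.1, 11 and 5.63), and the median was 0.04. The same list had 0 genes past 2-fold in WAT, liver and muscle, with medians of -0.15, 0.30 and -0.11.

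The decreases in BAT were led by genes of skeletal muscle. All 14 fast-twitch genes tested were lower, with a median of -3.86 in HFD-ncls and -1.40 in HFD-veh, as were 8 of 11 slow-twitch genes. Myh1, a fast myosin heavy chain, had 51 for NCD-veh, 11.7 for HFD-veh and 0.877 for HFD-ncls, Mylpf, a fast myosin light chain, had 315 for NCD-veh, 71.6 for HFD-veh and 10.4 for HFD-ncls, and Pvalb, the calcium buffer parvalbumin, had 253 for NCD-veh, 76.6 for HFD-veh and 15.1 for HFD-ncls. Each was highest in NCD-veh and lowest in HFD-ncls, as was the summed level of the skeletal muscle markers. Tnnc2, Tnni2 and Casq1 had log2 ratios of -3.86, -3.85 and -4.70. The slow-twitch genes Myl2 (8.25, 12.1 and 1.03) and Myl3 (2.27, 3.32 and 0.211) were highest in HFD-veh. Csrp3, Cryab and Fitm1, which muscle also expresses, had -5.09, -2.24 and -2.75. The part of muscle tissue in the BAT libraries was not tested.

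Muscle was the organ nearest to chow. Some of the slow-twitch genes were chosen by the study on these samples, so their values are no independent evidence. The list had 0 of 11 over 2-fold in HFD-ncls, with a median of 0.05, while 6 were over 2-fold lower in HFD-veh (median -1.38). Fast-twitch genes had 0 of 13 over 2-fold, with a median of -0.06. Fatty acid synthesis and cholesterol genes had 0 of 15 and 0 of 16 past 2-fold. Of the genes that did differ, Cish (chr9:107198357-107205115) and Fos are described above. Of 18 clock genes, 3 were higher, among them Per2 (0.986 for NCD-veh, 2.88 for HFD-veh and 2.81 for HFD-ncls) and Dbp (19.4 for NCD-veh, 55.2 for HFD-veh and 48.2 for HFD-ncls), which also differed in liver. Pi16, a peptidase inhibitor of fibroblasts, had 5.17 for NCD-veh, 7.21 for HFD-veh and 15.2 for HFD-ncls, and Fn1, fibronectin, had 2.44 for NCD-veh, 4.42 for HFD-veh and 7.38 for HFD-ncls. HFD-ncls was the highest library for both, and Fn1 is enriched in another organ. All 13 macrophage genes tested in muscle had a ratio above 0, with a median of 0.61 and none past 2-fold, and the 5 chemokines tested had a median of 0.41. Of the 13 macrophage genes, 8 are enriched in another organ, and the other 5 had a median of 0.59. Of the 5 chemokines, 2 are enriched in another organ.

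The muscle genes below chow were few. Aqp4, the water channel of fast muscle fibres, had 5.11 for NCD-veh, 1.56 for HFD-veh and 1.42 for HFD-ncls. Smox, spermine oxidase, had 342 for NCD-veh, 152 for HFD-veh and 159.6 for HFD-ncls, and Nmrk2, a nicotinamide riboside kinase of muscle, had 39.1 for NCD-veh, 28 for HFD-veh and 17.3 for HFD-ncls. For Aqp4 and Smox the 2 high-fat libraries were alike, and for Nmrk2 HFD-ncls was the lowest. 8430408G22Rik had 16.2 for NCD-veh, 7.77 for HFD-veh and 6.08 for HFD-ncls, the opposite direction to WAT. Dag1, the dystroglycan gene, and Pex5, the peroxisomal import receptor, were lower in HFD-ncls alone, with 2.3, 2.43 and 0.561 and 3.27, 4.32 and 1.04, at low levels. H2-Q7, a class I histocompatibility gene with near-identical neighbours, had 2.39, 0.401 and 0.052.

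The heat shock, interferon-stimulated and MHC class II lists held at most 2 genes past 2-fold in an organ. Heat shock genes had 1 of 16 higher in WAT, namely Hsph1 (1.24), and 2 of 16 lower in liver, Hspa1a (-1.12) and Hspa1b (-1.45). Interferon-stimulated genes had Oas2 higher in WAT (1.03) and 2 of 18 lower in liver, among them Rsad2 (-1.11), and medians of 0.43 in BAT and 0.57 in muscle with none past 2-fold. MHC class II genes had 1 of 7 higher in WAT, H2-DMb1 (1.12), with all 7 ratios above 0. Some lists described above for liver or BAT also had members past 2-fold elsewhere. In the clock list, WAT had Nfil3 higher (1.0 for NCD-veh, 3.33 for HFD-veh and 5.87 for HFD-ncls) and 2 genes lower, including Nr1d1, the REV-ERB alpha gene (137 for NCD-veh, 65.7 for HFD-veh and 40.3 for HFD-ncls), and BAT had 0 of 18 past 2-fold. Immediate-early genes were higher in 5 of 17 cases in WAT, with Atf3, a stress transcription factor, at 2.62 for NCD-veh, 12.5 for HFD-veh and 18.2 for HFD-ncls, and in 3 of 15 in muscle. In WAT, the fatty acid synthesis list had 1 gene higher and 1 lower, with a median of -0.01, and the fatty acid oxidation list 1 higher and 1 lower (median 0.12), the lower one being Vnn1, pantetheinase (-1.39).

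**Figure D5:**
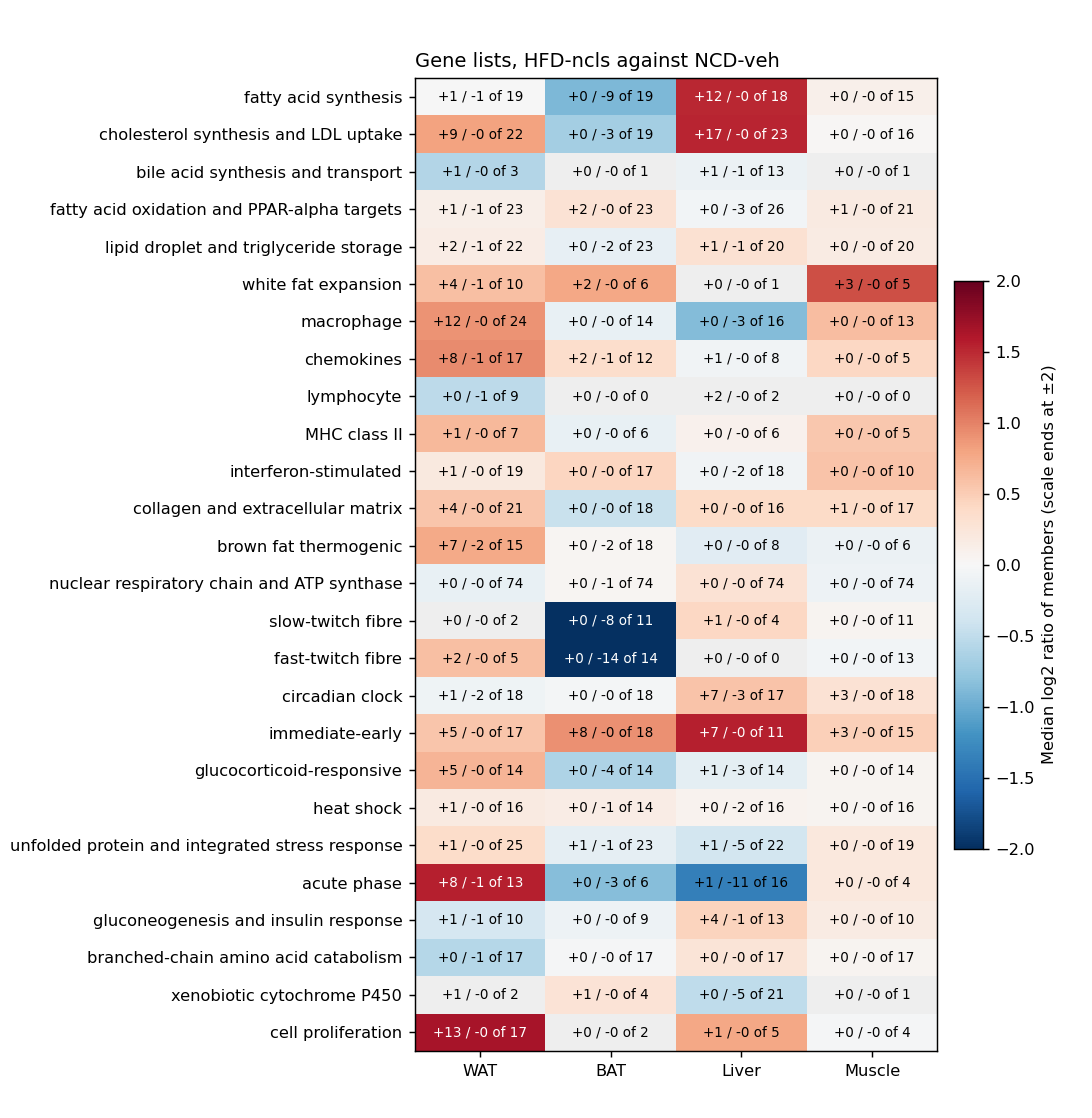
Colour gives the median log2 ratio of HFD-ncls to NCD-veh over the tested members of 26 gene lists in the 4 organs (scale ends at ±2, grey where fewer than 3 members were tested). The text in each cell gives the number over 2-fold higher (+) and lower (-) of those tested, for example +17 and -0 of 23 for cholesterol synthesis in liver.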

How the data were processed

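Expression levels were deposited as FPKM, 1 value for each of 22276 gene symbols in each library. Per the methods of the study, the authors used TopHat 2.0.11 for alignment to mm9 and Cufflinks with RefSeq genes for these values. Antisense and overlapping genes share reads where strand was not used, which is not stated. Groups came from the sample labels. FPKM is not a count and depth is not stated, so no count test was run. Ratios are log2(FPKM + 0.1), filtered at an FPKM of at least 1 in either library of an organ. Symbols without a value (82 in at least 1 of the 8 libraries) were left out. With 1 library per organ and group, a fold threshold (2-fold, and 1.4-fold as the smaller one) stands in place of a test. The exception is limma 3.58.1 (R 4.3.3) on 8 libraries with organ as block and a trend, Benjamini-Hochberg adjusted. The residual spread in that fit is that between organs.

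The 26 gene lists and 7 marker lists, and the choice of libraries, were made with earlier results of these data known, and the seminal vesicle list was added after the values were seen. Of 582 list symbols, 6 are not in the table (Hmgcs1, Ccl19, Cyp3a41a, Hba-a1, Hba-a2 and Amy2a5). A gene counted as enriched in an organ where its mean there reached 10 FPKM and 20 times the median elsewhere. The blood list, which leaves out the beta-globin symbol Beta-s, had 2 genes tested in each organ and none past 2-fold. In liver their log2 ratios were -0.84 and 0.48. Of the pancreas acinar list, 1 gene was tested and over 2-fold higher in WAT and 1 in liver. No testis or epididymis gene was tested. Named genes were the 5 most increased and decreased per organ on log2(FPKM + 1), the 10 higher and lower with the smallest adjusted p of the block fit, list members over 2-fold (up to 6 per list), and the leading genes shared with or absent from HFD-veh, without genes enriched in another organ in the first and last set. Genes named for 1 organ may be given in others, and some genes that the rule names are not reported here.

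Alternatives covered the pseudocount, filter, threshold, rescaling, organ-enriched genes and leaving out each organ. On simulated data of 7869 genes, the block fit found 200 of 200 genes made 4-fold apart, with 16 unchanged genes called, and the fold threshold found 199 of 200, with 143 unchanged genes called. In the libraries themselves, Fos had log2 ratios from 1.85 in WAT to 3.96 in BAT and was not called by the block fit. How well that fit finds differences whose size varies between organs, as for Fos, was not tested. Python 3.11.15, numpy 2.4.6, pandas 2.3.3 and matplotlib 3.10.9 were used. Gene positions are from GENCODE vM1 on mm9, and promoter windows from RefSeq on GRCm38.p6.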

Additional observations from a re-analysis of the deposited data

Results flagged for a closer look

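Of the named genes, 11 were over 2-fold higher in HFD-ncls than in NCD-veh in 1 organ and over 2-fold lower in another. None of these differences between organs was tested, since each rests on 1 library per organ and group. All values are log2 ratios of HFD-ncls to NCD-veh. Fasn was 3.83 in liver and -2.05 in BAT, and Acly was 2.47 in liver and -2.16 in BAT. Cfd was 4.47 in liver, where it went from 0.163 to 5.71 FPKM and is enriched in WAT, and -3.44 in WAT. Saa1 was 2.69 in WAT and -4.56 in liver, and Saa3 was 4.11 in WAT (7.56 to 132 FPKM) and -5.12 in liver. Cdkn1a was 2.78 in WAT and -2.05 in liver. Casq1 was 2.75 in WAT and -4.70 in BAT and is enriched in muscle.

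In the other 4 genes a library was listed at or near 0. Beta-s was 7.06 in muscle, from 0.00806 to 14.3 FPKM, and -7.73 in liver, from 22.7 to 0.00704. Mea1 was 4.49 in muscle and -5.09 in BAT, with 3.58e-09 FPKM in HFD-ncls BAT. Vps13d was 3.62 in muscle and -3.94 in liver, and Zbtb24 was 3.80 in BAT and -4.67 in WAT.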

How the results depend on the processing

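With 1 library per organ and group, the counts of genes over 2-fold have no replicate check, and they move with the threshold, the filter and the pseudocount. In the order WAT, BAT, liver and muscle, the genes over 2-fold between HFD-ncls and NCD-veh (1185, 425, 518 and 115) became 696, 257, 279 and 35 with a pseudocount of 1, 620, 191, 274 and 32 at an FPKM of at least 5, 2070, 905, 975 and 436 without a filter, and 3741, 1574, 2091 and 845 at 1.4-fold. The diet-related genes that remained became 456, 126, 157 and 13 with a pseudocount of 1, 458, 128, 172 and 15 at an FPKM of at least 5, and 2773, 983, 1214 and 352 at 1.4-fold, a setting added after seeing the data. Without a filter they became 454 in BAT, 450 in liver and 147 in muscle, and with a pseudocount of 0.01 they became 84 in muscle. Without genes enriched in another organ, BAT had 222 genes over 2-fold, of which 122 diet-related ones remained. The stricter version of this alternative, also added after seeing the data, gave 221 and 122. Fos as the gene over 2-fold in all 4 organs became 0 genes at an FPKM of at least 5, 3 without a filter (Fos, Cxcl1 and Spaca5) and 7 at 1.4-fold. Leaving out each organ gave 1 to 3 such genes, 3 without WAT (Cish, Egr1 and Fos) and 3 without liver (Fos, Lep and Cyp2e1). The block fit called 1 gene without a filter (Cldn23, limma adjusted p = 0.0378), and 0 to 1 when each organ was left out, the 1 being Cish without WAT (adjusted p = 0.0227). Its smallest adjusted p ranged from 0.0227 to 0.960 over these settings. Of 249 ratios of named genes, 14 moved with a pseudocount of 1 and 5 after rescaling, and none changed direction. With a pseudocount of 1, those that fell within 2-fold included Oas2 (0.777) and Cd8b1 (-0.895) in WAT and Atp5g1 (-0.979) in BAT. In liver they included Rsad2 (-0.779) and Hspa1a (-0.866). After rescaling, Oas2 in WAT (0.972) and G6pc in liver (0.956) were among them. Depth is known only as a relative value. For NCD-veh and HFD-ncls it was 0.835 and 0.747 in WAT, which had the most genes over 2-fold. It was 0.946 and 0.946 in liver, 1.04 and 1 in BAT, and 1 and 1.03 in muscle, which had the fewest. The part of depth in the counts was not tested.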

Other observations

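Some genes outside the lists had ratios of the same sign in all 4 organs, though not of the same size. Serpinh1, the collagen chaperone HSP47, went from 220.1 to 393 FPKM between NCD-veh and HFD-ncls in WAT, from 25.9 to 34.9 in BAT, from 1.74 to 4.39 in liver and from 8.63 to 13.6 in muscle, and Tuba1a, an alpha-tubulin gene, had log2 ratios of 1.39, 0.28, 1.10 and 0.66 in that order. Tagln2, an actin-binding protein gene, had 0.90, 0.39, 0.66 and 0.68. Below chow in each organ were Cirbp, the cold-inducible RNA-binding protein (-0.64, -0.49, -0.56 and -0.10), the chaperone gene Clu (-0.40, -1.08, -0.56 and -0.61) and the transferrin gene Trf (-1.30, -1.04, -0.47 and -0.12). These genes were named for their small p-values in the limma block fit, so their shared sign is no separate support. None passed that fit.

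Some of the largest ratios came from symbols listed near 0 in 1 library. Pisd-ps1 was at 0.0296, 0.0365 and 8.31 FPKM in BAT (NCD-veh, then HFD-veh, then HFD-ncls) and in the same order at 0.046, 0.0404 and 7.71 in liver. Atp6v0c-ps2 was at 0.0288, 0.0884 and 7.32 in muscle and Gm13363 at 6.44, 7.61 and 0.0261 in BAT.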
